A study of Homo sapiens with 9 samples.

Results

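The genes described here are 36 of the 26816 in a table of read counts from OCI-Ly1, and they were chosen by symbol, with no measured value in the rule, though with earlier results of these data known. They cover the mevalonate pathway (7 genes), the steps from squalene to cholesterol (11), the control of the SREBP transcription factors (5), intracellular sterol transport (3), targets of the liver X receptors, LXR (3), and fatty acid synthesis and desaturation (7). OCI-Ly1 is an established lymphoma line, classed as diffuse large B-cell of the germinal-centre type. The cells were grown in IMDM with 10% serum, carried pLKO1 shRNA vectors and were selected with puromycin. The groups were cells with an shRNA against KDM1A named sh72 in the count table, cells with another shRNA against KDM1A named sh68, and cells with a non-targeting control shRNA (shSCR), each in 3 biological replicates of this 1 line. KDM1A encodes LSD1, a demethylase of histone H3. The comparison asked how the transcripts of lipid synthesis differ when LSD1 is depleted.

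Cells build cholesterol from acetyl-CoA through mevalonate, farnesyl diphosphate and squalene, and build fatty acids from the same acetyl-CoA. Both routes are switched on by the SREBP factors, which SCAP carries out of the endoplasmic reticulum when sterols are low and which the INSIG proteins hold back when sterols are high. When oxysterols accumulate, the LXR nuclear receptors switch on genes of cholesterol export.

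The 9 libraries held 29506767 to 35270849 counted reads, and levels are given as CPM, counts scaled to library size, after TMM adjustment between libraries. KDM1A had 19.1, 22.7 and 20.9 CPM with sh72 and 23.4, 24.1 and 25.8 CPM with sh68, against 121, 120 and 123 CPM with shSCR. This left 17.2% of the control level with sh72 and 20.2% with sh68. All 8 B-cell markers examined were detected in every library, at 44.8 CPM or more. Their summed level was 3770 to 3980 CPM with sh72, 5570 to 5730 CPM with sh68 and 5460 to 5660 CPM with shSCR, so the sh72 range lay below both others, and the part of this difference in the results was not tested. The 9 markers of other cell types found in the table summed to 23.0 to 24.7 CPM with sh72, 13.6 to 16.1 CPM with sh68 and 23.3 to 27.3 CPM with shSCR. EPCAM and PECAM1 made up most of the sum. EPCAM had 15.5 to 16.1 CPM with sh72, 7.40 to 8.85 CPM with sh68 and 15.1 to 18.1 CPM with shSCR, and PECAM1 had 4.84 to 5.71 CPM with sh72, 3.84 to 4.51 CPM with sh68 and 7.65 to 8.47 CPM with shSCR. LYZ had 1 to 2 reads a library with sh72 and 21 to 31 with sh68, against 0 in all 3 shSCR libraries. COL1A1 had 1.57, 2.65 and 1.18 CPM with sh72 and 1.10, 1.40 and 1.31 CPM with sh68, against 0.278, 0.450 and 0.351 CPM with shSCR. CD3E, CD33 and KRT18 were at 0 in 1, 2 and 4 libraries. The part of these markers in the results was not tested.

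Of the 36 genes, 24 were lower and 7 were higher when the mean of both shRNAs was set against shSCR, and 5 passed in neither direction, with an adjusted p under 0.05 in edgeR's quasi-likelihood test over 15725 genes. Across all genes tested, 52.3% passed this comparison, 24.9% higher and 27.5% lower, so a call by itself was common. The genes are also well expressed. Among the 8884 genes averaging at least 10 CPM, a background added after seeing the data, 62.6% passed, 25.1% higher and 37.5% lower. Of the 34 members at that level, 30 passed, 6 higher and 24 lower. The median log2 fold change of the 36 was -0.16, beside -0.015 for all genes tested. In these bulk libraries, fewer cells with a transcript and less transcript per cell cannot be told apart.

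With sh72 alone, 6 members were higher and 18 lower, where 24.7% of all genes were higher and 26.3% lower (51.0% in all). With sh68 alone, 5 were higher and 20 lower, where 27.4% of all genes were higher and 28.1% lower (55.5% in all). Both comparisons use the same 3 control libraries. The median log2 fold change of the members was -0.13 with sh72 and -0.16 with sh68. Most of the differences were small. When a change of more than 1.2-fold was required, an alternative added after seeing the data, 2 members passed as higher and 7 as lower on the mean, where 10.9% of all genes passed as higher and 7.87% as lower. Under the same rule 1 was higher and 4 were lower with sh72, where 10.2% and 11.1% of all genes were, and 3 were higher and 8 lower with sh68, where 15.3% and 9.25% were.

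With each shRNA, 13 members passed in the same direction without overlap, that is with all libraries of both shRNAs beyond all controls: 12 were lower and STARD4 was higher. Over all genes tested, 12.2% met this rule as lower and 11.9% as higher. The 12 span every step class but sterol transport and LXR targets: ACAT2, HMGCS1, MVD and IDI1 of the mevalonate pathway, FDFT1, LSS, TM7SF2, MSMO1 and DHCR7 of the squalene to cholesterol steps, SREBF2, FASN and SCD. ABCA1, MYLIP and ACLY passed with each shRNA in opposite directions, which 7.83% of all genes did. The sh72 call of ABCA1 and the sh68 call of MYLIP were lost in several alternatives, given beside these genes, so ACLY alone kept both calls in every alternative but the minimum of 1.2-fold. Set directly against each other, sh72 and sh68 differed in 22 members, 12 higher with sh72 and 10 lower, where 27.2% of all genes were higher and 29.0% lower (56.2% in all). With more than 1.2-fold required of this difference, 4 members were higher and 6 lower, where 10.0% and 15.9% of all genes were. A difference that passed the plain test and reached 1.5-fold was found in 2 members higher with sh72 and 5 lower, where 5.51% and 12.4% of all genes met that rule.

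**Figure D1:**
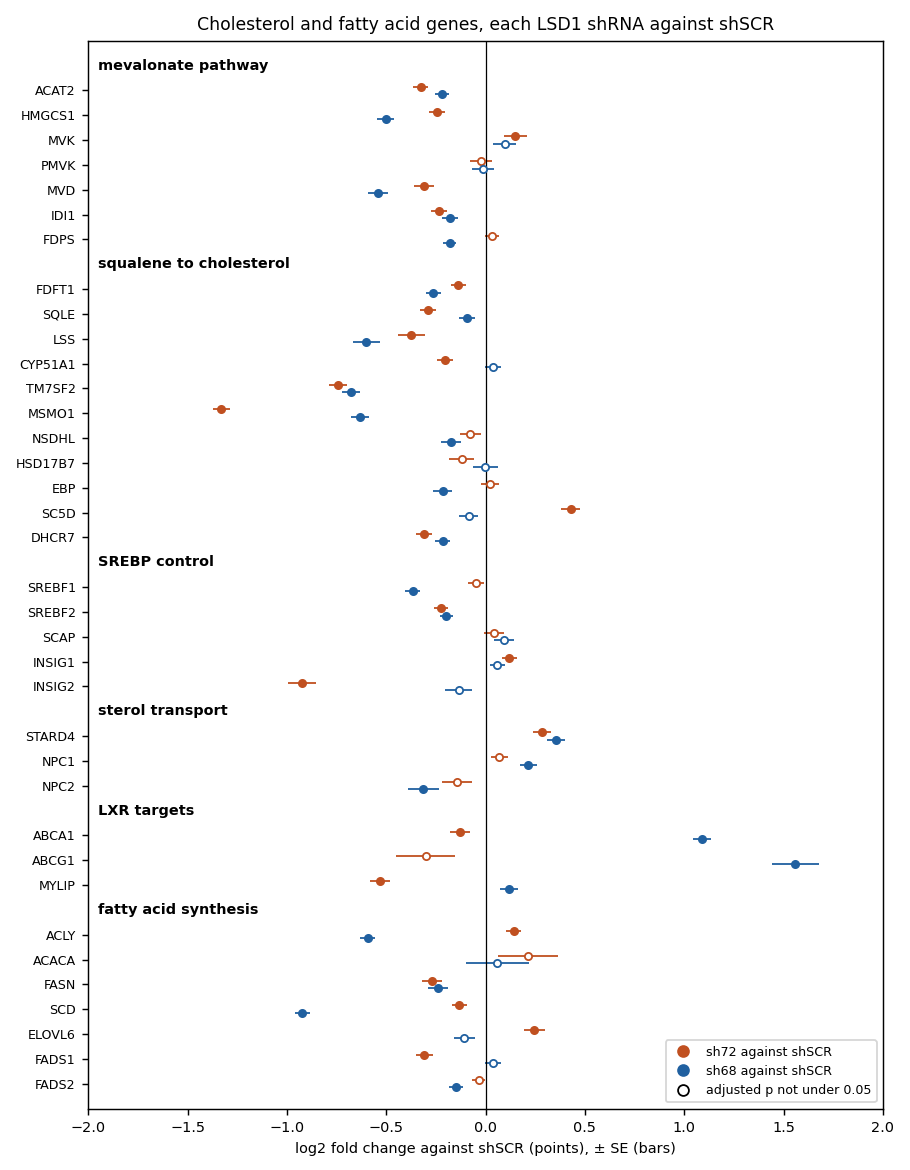
Log2 fold change of each of the 36 genes against shSCR (x axis), with sh72 in orange and sh68 in blue, points with bars of 1 SE, grouped by role. Filled points passed an adjusted p of 0.05; TM7SF2 lies at -0.74 with sh72 and -0.68 with sh68, while ABCA1 lies at -0.13 with sh72 and 1.09 with sh68.

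The promoters of 4 of these 13 genes are shown first, the pair with the lowest and the pair with the highest log2 fold change among those with an entry, followed by that of SREBF2, which was added after the motif search. Each is the 250 bases before a RefSeq start on GRCh38.p14, written 5′ to 3′ on the gene's strand. Capitals mark 4 motifs on either strand: the sterol response element core TCACNCCAC, the NF-Y box, which reads CCAAT or, in reverse, ATTGG; the Sp1 box, which reads GGGCGG or its reverse form CCGCCC; and the E-box, which reads CACGTG on both strands. IDI1 has 3 listed starts, and the window shown is that of the start furthest downstream on its strand. This window has 3 NF-Y boxes, while those of the other starts have 2 and 0. Its capital run CCAATTGG holds overlapping NF-Y boxes on both strands.
MSMO1, chr4:165327419-165327668, + strand: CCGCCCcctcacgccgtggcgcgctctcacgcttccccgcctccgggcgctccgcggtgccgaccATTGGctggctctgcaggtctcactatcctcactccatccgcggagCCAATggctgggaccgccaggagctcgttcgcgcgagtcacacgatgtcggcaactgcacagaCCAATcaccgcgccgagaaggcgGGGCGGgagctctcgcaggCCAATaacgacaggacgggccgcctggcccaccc
TM7SF2, chr11:65111622-65111871, + strand: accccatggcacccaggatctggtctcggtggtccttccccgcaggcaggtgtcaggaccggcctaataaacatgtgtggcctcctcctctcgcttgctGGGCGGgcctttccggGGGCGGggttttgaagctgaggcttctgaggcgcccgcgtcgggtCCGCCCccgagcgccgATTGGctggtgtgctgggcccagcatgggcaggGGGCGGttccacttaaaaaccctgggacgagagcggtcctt
IDI1, chr10:1048887-1049136, - strand: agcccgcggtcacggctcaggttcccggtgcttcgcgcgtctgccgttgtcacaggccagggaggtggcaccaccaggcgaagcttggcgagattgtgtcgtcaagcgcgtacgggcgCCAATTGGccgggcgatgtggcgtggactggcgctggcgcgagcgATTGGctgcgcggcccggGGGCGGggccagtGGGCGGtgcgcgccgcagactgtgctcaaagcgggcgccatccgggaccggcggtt
STARD4, chr5:111512536-111512785, - strand: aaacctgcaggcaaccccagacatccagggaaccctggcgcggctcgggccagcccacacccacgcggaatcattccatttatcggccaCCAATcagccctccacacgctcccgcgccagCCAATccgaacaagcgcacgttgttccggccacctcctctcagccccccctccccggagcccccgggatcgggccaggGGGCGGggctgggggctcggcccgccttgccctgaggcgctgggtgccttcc
SREBF2, chr22:41832855-41833104, + strand: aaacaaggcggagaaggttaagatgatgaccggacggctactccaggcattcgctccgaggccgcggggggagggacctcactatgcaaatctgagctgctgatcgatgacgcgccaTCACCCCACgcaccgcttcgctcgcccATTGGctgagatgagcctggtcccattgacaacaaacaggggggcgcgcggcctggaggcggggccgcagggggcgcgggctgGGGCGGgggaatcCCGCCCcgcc

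MSMO1 had 4 NF-Y boxes and 2 Sp1 boxes in this window, and TM7SF2 had 1 NF-Y box and 4 Sp1 boxes. STARD4, which moved in the other direction, had 2 NF-Y boxes and 1 Sp1 box. SREBF2 had the sterol response element core and was the 1 member with it.

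RefSeq listed 42 promoters for 31 of the 36 genes. ACAT2, FDFT1, SQLE, FASN and ABCG1 were not matched. For 31 of the 42 promoters, bases just after the start were found in a GENCODE transcript of the same gene and strand. For the others they were not found. Some genes have several listed starts whose windows overlap, so the promoters are not independent. An NF-Y box stood in 25 of the 42 (59.5%, 95% Wilson interval 44.5 to 73.0%), against 32.6% of 15313 promoters of tested genes and 32.0% of all 35116 in the table. A Sp1 box stood in 38 (90.5%, 77.9 to 96.2%), against 60.1% of promoters of tested genes and 42.6% of all. E-boxes were in 5 (11.9%, 5.19 to 25.0%), against 8.15% and 6.34%. The sterol response element core was in 1 (2.38%, 0.422 to 12.3%), against 0.901% and 0.883%. Of the 36 members, 34 averaged at least 10 CPM, and no promoter background of genes at that level was computed. A match to these letters is a description of the window and not a bound site.

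**Figure D2:**
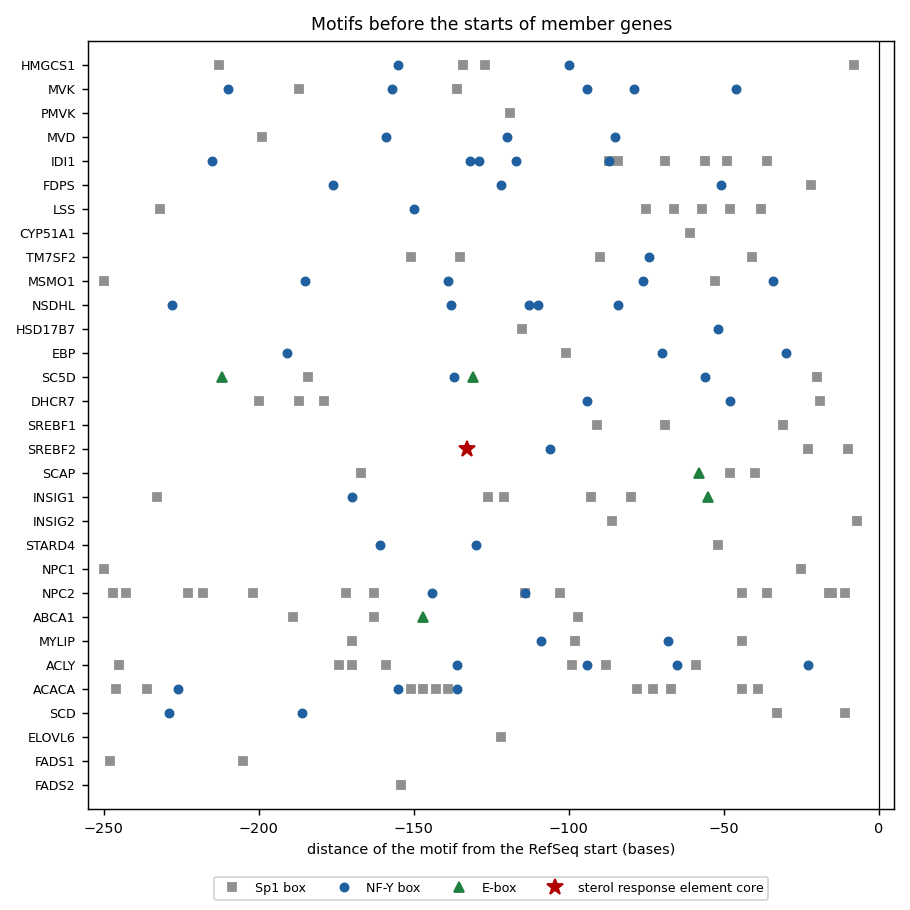
Distance of each motif from the RefSeq start (x axis, bases; 0 is the start) for the 31 genes with an entry (rows), with the motifs of all listed starts of a gene drawn on 1 row. Grey squares are Sp1 boxes, blue circles NF-Y boxes, green triangles E-boxes and the red star the sterol response element core, which appears in SREBF2 alone; NF-Y boxes appear in the rows of most genes of sterol synthesis.

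In the mevalonate pathway, 5 of 7 genes were lower on the mean of both shRNAs and 1 was higher, where 27.5% and 24.9% of all genes were. HMGCS1, which makes HMG-CoA from acetyl-CoA and acetoacetyl-CoA, had 554, 551 and 566 CPM with sh72 and 443, 485 and 466 CPM with sh68, against 622, 683 and 673 CPM with shSCR. No library of either shRNA reached the controls, and the sh68 libraries were below those of sh72. HMGCS1 fell by 0.24 ± 0.041 with sh72 (log2 fold change ± SE, edgeR adjusted p = 2.24e-05) and by 0.50 ± 0.041 with sh68 (edgeR adjusted p = 2.57e-10).

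MVD, the decarboxylase that yields isopentenyl diphosphate, had 121, 106 and 99.6 CPM with sh72 and 94.0, 95.4 and 89.1 CPM with sh68, against 137, 138 and 131 CPM with shSCR. It fell by 0.31 ± 0.052 with sh72 (edgeR adjusted p = 2.31e-05) and by 0.54 ± 0.052 with sh68 (edgeR adjusted p = 5.48e-09). Here too the sh68 libraries were the lowest, and the direct difference was 0.23 ± 0.053 for sh72 minus sh68 (edgeR adjusted p = 0.000599).

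ACAT2, the cytosolic thiolase that joins acetyl-CoA units, had 114, 116 and 116 CPM with sh72 and 121, 126 and 125 CPM with sh68, against 143, 145 and 146 CPM with shSCR. The groups did not overlap, and the log2 fold changes were -0.33 ± 0.037 with sh72 and -0.22 ± 0.036 with sh68. Exons of SOD2 and TCP1 on the opposite strand overlap 34.8% and 12.5% of the merged ACAT2 exons, and the strand setting of the counting is not given in the sources used here, so reads there cannot be assigned with certainty.

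IDI1, the isomerase of isopentenyl diphosphate whose promoter is printed above, had 184, 183 and 189 CPM with sh72 and 182, 199 and 197 CPM with sh68, against 211, 229 and 216 CPM with shSCR. It fell by 0.23 ± 0.041 with sh72 and by 0.18 ± 0.041 with sh68, and the direct difference did not pass (-0.05, edgeR adjusted p = 0.278). FDPS, the farnesyl diphosphate synthase, averaged 338 ± 3.24 CPM with sh72 and 291 ± 6.26 CPM with sh68, against 330 ± 1.39 CPM with shSCR (SD, n = 3 each). It fell with sh68 (-0.18 ± 0.034) and did not pass with sh72 (0.03, edgeR adjusted p = 0.457), and the shRNAs differed by 0.21 ± 0.034 (edgeR adjusted p = 1.01e-05).

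The kinases of the pathway did not pass as lower in any comparison with shSCR. MVK, which phosphorylates mevalonate, averaged 27.0 ± 1.42 CPM with sh72 and 26.1 ± 0.644 CPM with sh68, against 24.4 ± 0.484 CPM with shSCR (SD, n = 3 each). It was higher on the mean by 0.12 ± 0.049 (edgeR adjusted p = 0.0397), passed with sh72 and did not pass with sh68 (edgeR adjusted p = 0.154). PMVK, the next kinase, averaged 77.1 ± 6.63 CPM with sh72, 77.8 ± 4.13 CPM with sh68 and 78.5 ± 3.29 CPM with shSCR (SD, n = 3 each), and passed no comparison. Other overlaps with genes in the table are 28.9% of FDPS exons with RUSC1-AS1, which held at most 8 reads a library, 4.73% of IDI1 exons with IDI2-AS1 and 2.35% of MVK exons with MMAB. Summed over the 7 genes, the pathway had 1408 ± 13.9 CPM with sh72 and 1269 ± 41.0 CPM with sh68, against 1590 ± 38.6 CPM with shSCR (SD, n = 3 each).

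Of the 11 genes from squalene to cholesterol, 9 were lower on the mean and 1 was higher, where 27.5% and 24.9% of all genes were. The lowest log2 fold change on the mean among the 36 was that of MSMO1. It encodes the methylsterol monooxygenase, which takes part in removing methyl groups from the sterol nucleus. MSMO1 had 99.6, 108 and 109 CPM with sh72 and 163, 177 and 173 CPM with sh68, against 252, 278 and 266 CPM with shSCR. The 3 groups were separate, with sh72 lowest. This is 39.8% of the control level with sh72 (-1.33 ± 0.045, edgeR adjusted p = 8.35e-17) and 64.5% with sh68 (-0.63 ± 0.044, edgeR adjusted p = 1.7e-11), and the difference of -0.70 ± 0.045 between the shRNAs passed as well (edgeR adjusted p = 4.53e-12).

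TM7SF2, a sterol reductase acting on the lanosterol side of the route, had 37.0, 38.6 and 36.1 CPM with sh72 and 38.3, 38.8 and 39.6 CPM with sh68, against 63.6, 62.4 and 60.8 CPM with shSCR. Both shRNAs thus left close levels, 59.8% of control with sh72 and 62.5% with sh68. The log2 fold changes were -0.74 ± 0.047 with sh72 and -0.68 ± 0.046 with sh68 (edgeR adjusted p = 4.59e-12 and 1.25e-11), and the direct difference of -0.06 did not pass (edgeR adjusted p = 0.271).

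LSS, the cyclase that forms lanosterol, had 31.4, 31.8 and 31.9 CPM with sh72 and 31.2, 26.5 and 23.8 CPM with sh68, against 42.3, 41.0 and 40.1 CPM with shSCR. It fell by 0.37 ± 0.067 with sh72 (edgeR adjusted p = 5.36e-05) and by 0.60 ± 0.068 with sh68 (edgeR adjusted p = 6.83e-08). The sh68 libraries were spread more widely than the others, and the direct difference of 0.23 passed (edgeR adjusted p = 0.00706) but not without sh68 replicate 3 (0.14, edgeR adjusted p = 0.0899).

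FDFT1, squalene synthase, had 308, 285 and 286 CPM with sh72 and 265, 274 and 267 CPM with sh68, against 320, 331 and 316 CPM with shSCR. The decrease was 0.14 ± 0.038 with sh72 on the log2 scale, which no longer passed without sh72 replicate 2 (edgeR adjusted p = 0.07) or replicate 3 (edgeR adjusted p = 0.0566), and 0.26 ± 0.038 with sh68. DHCR7, the reductase of the last step to cholesterol, had 253, 243 and 230 CPM with sh72 and 262, 257 and 255 CPM with sh68, against 301, 312 and 287 CPM with shSCR. Its log2 fold changes were -0.31 ± 0.040 with sh72 and -0.22 ± 0.040 with sh68.

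SQLE, squalene monooxygenase, averaged 389 ± 2.72 CPM with sh72 and 444 ± 16.0 CPM with sh68, against 475 ± 22.4 CPM with shSCR (SD, n = 3 each). It passed as lower with sh72 (-0.29 ± 0.039, edgeR adjusted p = 1.21e-06) and with sh68 (-0.09 ± 0.039, edgeR adjusted p = 0.0414), although a library of sh68 at 462 CPM lay above the lowest control at 452 CPM. CYP51A1, the lanosterol demethylase, averaged 195 ± 3.77 CPM with sh72 and 231 ± 10.7 CPM with sh68, against 225 ± 8.62 CPM with shSCR (SD, n = 3 each). It fell with sh72 (-0.21 ± 0.040) and did not pass with sh68 (0.04, edgeR adjusted p = 0.445), and the shRNAs differed (-0.24 ± 0.040, edgeR adjusted p = 1.6e-05). On the mean CYP51A1 passed narrowly as lower (-0.08, edgeR adjusted p = 0.046).

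SC5D, a sterol desaturase, was the 1 gene of these steps higher on the mean. It had 90.1, 90.4 and 94.4 CPM with sh72 and 61.2, 65.8 and 65.5 CPM with sh68, against 63.4, 71.9 and 69.2 CPM with shSCR. All sh72 libraries lay above the controls, while the sh68 libraries overlapped them. The log2 fold change was 0.43 ± 0.048 with sh72 (edgeR adjusted p = 7.59e-08) and -0.09 with sh68 (edgeR adjusted p = 0.139), and the direct difference was 0.51 ± 0.048 (edgeR adjusted p = 2.65e-09).

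The other 3 genes of the list had log2 fold changes between -0.22 and 0.02 with either shRNA. EBP, a sterol isomerase, averaged 71.9 ± 3.73 CPM with sh72 and 60.8 ± 1.82 CPM with sh68, against 70.7 ± 1.11 CPM with shSCR (SD, n = 3 each). It passed as lower with sh68 and narrowly on the mean (edgeR adjusted p = 0.043). NSDHL, which acts after MSMO1, had 48.3 ± 2.24 CPM with sh72 and 45.2 ± 1.85 CPM with sh68, against 51.0 ± 2.57 CPM with shSCR (SD, n = 3 each), with the same calls. HSD17B7, the partner of NSDHL in this step, averaged 17.3 ± 0.278 CPM with sh72, 18.8 ± 0.840 CPM with sh68 and 18.8 ± 1.00 CPM with shSCR (SD, n = 3 each), and passed no comparison. A pseudogene copy, HSD17B7P2, held 148 to 180 reads a library, and how reads were divided between them is not given in the sources used here. Summed, the 11 genes had 1523 ± 23.7 CPM with sh72 and 1628 ± 36.2 CPM with sh68, against 1900 ± 61.8 CPM with shSCR (SD, n = 3 each).

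**Figure D3:**
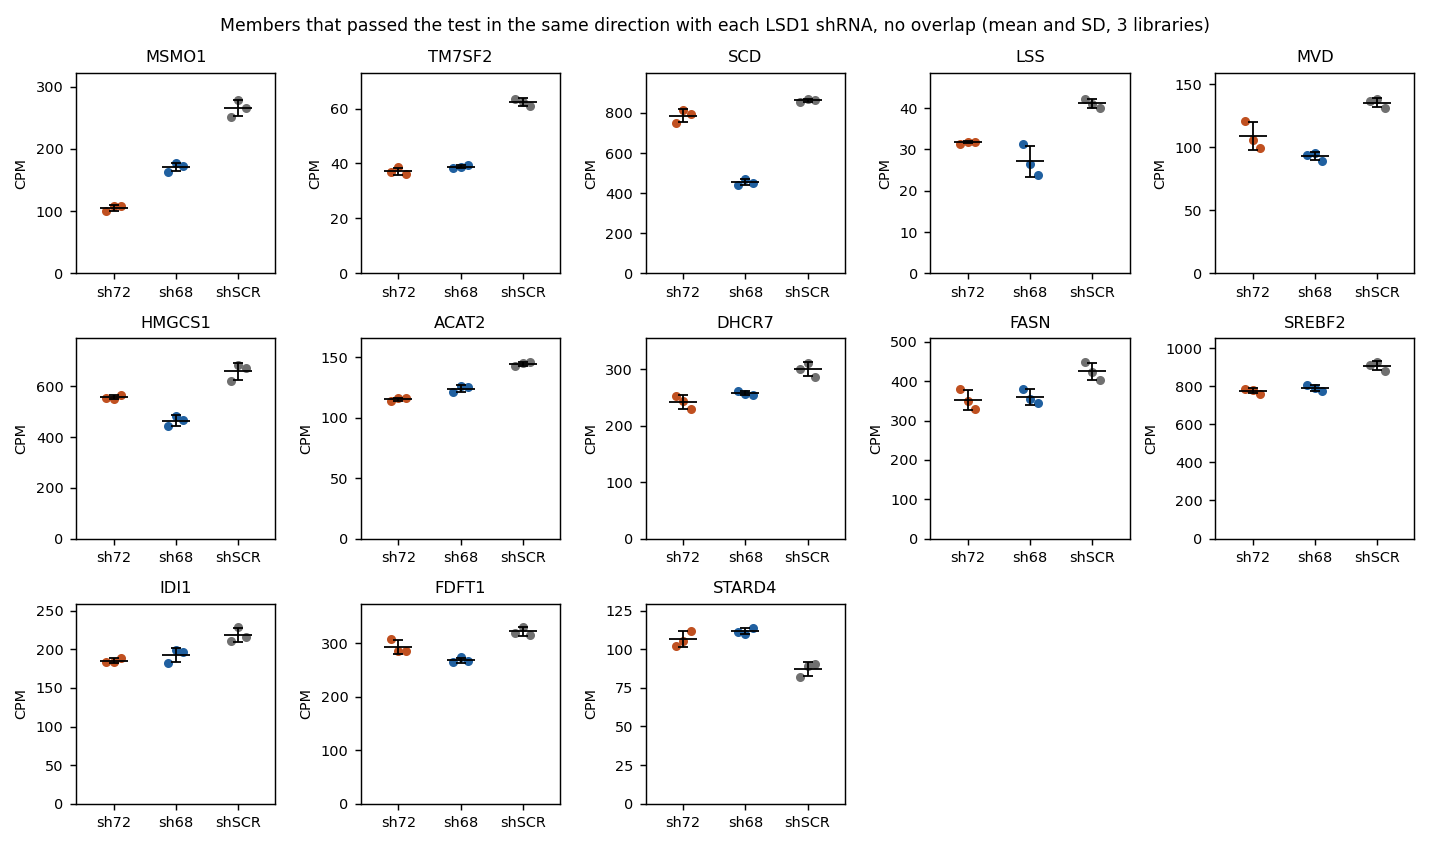
CPM in each library (points) for the 13 genes that passed in the same direction with each shRNA and whose LSD1 shRNA libraries do not overlap the controls, in panels with their own axis from 0; horizontal bars are means and error bars SD of 3 libraries. In every panel but that of STARD4 the sh72 and sh68 points lie below the shSCR points; MSMO1 had 99.6 to 109 CPM with sh72, 163 to 177 CPM with sh68 and 252 to 278 CPM with shSCR.

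Of the 5 genes of SREBP control, 3 were lower and 1 was higher on the mean, where 27.5% and 24.9% of all genes were. SREBF2, whose product mainly drives sterol genes, had 785, 780 and 761 CPM with sh72 and 806, 792 and 772 CPM with sh68, against 913, 925 and 880 CPM with shSCR. The 6 LSD1 shRNA libraries were below all controls. The log2 fold changes were -0.23 ± 0.035 with sh72 and -0.20 ± 0.035 with sh68 (edgeR adjusted p = 9.68e-06 and 4.32e-05), with a direct difference of -0.03 (edgeR adjusted p = 0.536).

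SREBF1, whose product mainly drives fatty acid genes, had 161, 153 and 152 CPM with sh72 and 129, 123 and 121 CPM with sh68, against 163, 163 and 156 CPM with shSCR. The sh72 libraries overlapped the controls and the sh68 libraries did not. SREBF1 fell by 0.37 ± 0.039 with sh68 (edgeR adjusted p = 3.21e-08), was at -0.05 ± 0.039 with sh72 (edgeR adjusted p = 0.331), and differed between the shRNAs by 0.32 ± 0.039 (edgeR adjusted p = 2.41e-07).

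SCAP, the escort of the SREBP proteins, had 72.6, 67.4 and 69.8 CPM with sh72 and 78.8, 70.1 and 68.4 CPM with sh68, against 69.9, 66.6 and 67.3 CPM with shSCR. These groups overlapped, and no comparison passed in the fit used here (0.07 ± 0.044 on the mean, edgeR adjusted p = 0.211). The value with sh68 (0.09, edgeR adjusted p = 0.128) passed with library size alone (edgeR adjusted p = 0.0488) and without sh68 replicate 3 (edgeR adjusted p = 0.0389).

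The genes of the retention proteins INSIG1 and INSIG2 went different ways. INSIG2 had 10.7, 12.3 and 13.1 CPM with sh72 and 20.1, 21.2 and 20.9 CPM with sh68, against 23.3, 22.1 and 23.0 CPM with shSCR. Its sh72 libraries stood at 52.8% of the control level and its sh68 libraries at 91.0%. INSIG2 fell by 0.93 ± 0.071 with sh72 (edgeR adjusted p = 1.31e-10), was at -0.14 ± 0.066 with sh68 (edgeR adjusted p = 0.082), and the direct difference was -0.79 ± 0.071 (edgeR adjusted p = 1.4e-09). INSIG1, itself a classic SREBP target, had 386, 389 and 402 CPM with sh72 and 368, 383 and 378 CPM with sh68, against 347, 374 and 362 CPM with shSCR. It was slightly higher with sh72 (0.12 ± 0.037, edgeR adjusted p = 0.00852). On the mean it was 0.09 ± 0.032 higher (edgeR adjusted p = 0.0221), which did not pass without shSCR replicate 1 (edgeR adjusted p = 0.12).

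In sterol transport, 2 of 3 genes were higher on the mean and 1 was lower, where 24.9% and 27.5% of all genes were. STARD4 was the 1 gene higher with each shRNA and with no overlap. It encodes a soluble carrier that moves sterol between membranes. STARD4 had 102, 105 and 112 CPM with sh72 and 111, 110 and 114 CPM with sh68, against 82.2, 89.1 and 90.6 CPM with shSCR. The log2 fold changes were 0.28 ± 0.045 with sh72 and 0.35 ± 0.045 with sh68 (edgeR adjusted p = 1.14e-05 and 4.41e-07). Exons of the antisense STARD4-AS1 overlap 2.24% of its exons.

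NPC1 and NPC2 pass cholesterol out of the lysosome as partners. NPC1 averaged 53.7 ± 0.222 CPM with sh72 and 59.3 ± 0.505 CPM with sh68, against 51.1 ± 0.446 CPM with shSCR (SD, n = 3 each), and rose with sh68 by 0.21 ± 0.043 (edgeR adjusted p = 0.000154). NPC2 averaged 17.3 ± 1.77 CPM with sh72 and 15.4 ± 0.787 CPM with sh68, against 19.1 ± 1.41 CPM with shSCR (SD, n = 3 each), and fell with sh68 by 0.31 ± 0.077 (edgeR adjusted p = 0.00131). Neither passed with sh72 (edgeR adjusted p = 0.185 and 0.119), and the direct difference passed for NPC1 (-0.15, edgeR adjusted p = 0.00531) and not for NPC2 (0.17, edgeR adjusted p = 0.0679).

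The LXR targets had the largest median difference between the shRNAs of the 6 roles, -1.2 in sh72 minus sh68. All 3 were higher with sh68, 2 were lower with sh72, and all 3 were lower in sh72 minus sh68. Over all genes, 27.4% were higher with sh68, 26.3% lower with sh72 and 29.0% lower in sh72 minus sh68. ABCA1, which exports cholesterol to apolipoproteins, had 33.3, 34.6 and 34.7 CPM with sh72 and 79.5, 81.9 and 77.5 CPM with sh68, against 38.4, 37.9 and 35.8 CPM with shSCR. The sh68 libraries stood above all others, at 213% of control. ABCA1 rose by 1.09 ± 0.047 with sh68 (edgeR adjusted p = 1.9e-15) and the direct difference was -1.22 ± 0.047 (edgeR adjusted p = 2.95e-16). Its decrease of 0.13 ± 0.050 with sh72 (edgeR adjusted p = 0.0357) missed the threshold in 15 of 18 alternative settings, with an adjusted p of 1 under the minimum of 1.2-fold and of 0.0567 to 0.197 in the other 14 (among them other scalings, other filters, DESeq2 and 8 of the 9 fits without 1 library).

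ABCG1, a partner of ABCA1 in cholesterol export, had 1.89, 1.70 and 2.33 CPM with sh72 and 6.66, 7.63 and 7.26 CPM with sh68, against 2.35, 2.49 and 2.45 CPM with shSCR. That is 54 to 268 reads a library, the sh68 libraries at 295% of control. ABCG1 rose by 1.56 ± 0.12 with sh68 (edgeR adjusted p = 1.63e-10), was at -0.30 ± 0.15 with sh72 (edgeR adjusted p = 0.105), and differed by -1.87 ± 0.13 between them (edgeR adjusted p = 1.08e-11).

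MYLIP, a ubiquitin ligase that marks lipoprotein receptors for degradation, had 40.9, 39.8 and 43.6 CPM with sh72 and 65.2, 65.7 and 63.9 CPM with sh68, against 62.7, 59.8 and 57.1 CPM with shSCR. The change lay mainly in sh72, where MYLIP fell by 0.53 ± 0.049 (edgeR adjusted p = 3.18e-09), and the direct difference was -0.65 ± 0.049 (edgeR adjusted p = 6.07e-11). The increase of 0.12 ± 0.047 with sh68 (edgeR adjusted p = 0.04) was lost with no filter on low counts and without any of 4 single libraries (edgeR adjusted p up to 0.163), and with the minimum of 1.2-fold (edgeR adjusted p = 1). Summed over the 3 genes, LXR targets had 77.6 ± 2.61 CPM with sh72 and 151.7 ± 3.31 CPM with sh68, against 99.65 ± 4.06 CPM with shSCR (SD, n = 3 each).

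In fatty acid synthesis, 5 of 7 genes were lower on the mean and none was higher, where 27.5% and 24.9% of all genes were. On the mean ELOVL6 (0.07, edgeR adjusted p = 0.201) and ACACA (0.14, edgeR adjusted p = 0.418) did not pass. FASN, the synthase that assembles palmitate, had 379, 350 and 328 CPM with sh72 and 381, 354 and 344 CPM with sh68, against 448, 422 and 404 CPM with shSCR. The libraries of the shRNAs overlapped each other and lay below all controls. FASN fell by 0.27 ± 0.049 with sh72 (edgeR adjusted p = 5.94e-05) and by 0.24 ± 0.049 with sh68 (edgeR adjusted p = 0.000208), and the direct difference of -0.03 did not pass (edgeR adjusted p = 0.618).

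SCD, the desaturase that introduces the first double bond into saturated fatty acids, had 752, 813 and 795 CPM with sh72 and 441, 471 and 453 CPM with sh68, against 854, 868 and 865 CPM with shSCR. Its level was 91.2% of control with sh72 and 52.8% with sh68, with no overlap between any of the groups. SCD fell by 0.13 ± 0.037 with sh72 (edgeR adjusted p = 0.00456) and by 0.92 ± 0.038 with sh68 (edgeR adjusted p = 7.69e-16), a difference of 0.79 ± 0.038 (edgeR adjusted p = 1.46e-14).

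ACLY, which makes cytosolic acetyl-CoA from citrate and so feeds both routes, had 699, 649 and 640 CPM with sh72 and 394, 395 and 406 CPM with sh68, against 606, 606 and 591 CPM with shSCR. It stood above the controls with sh72, at 110% of their level, and below them with sh68, at 66.3%. The log2 fold changes were 0.14 ± 0.037 with sh72 (edgeR adjusted p = 0.00273) and -0.59 ± 0.038 with sh68 (edgeR adjusted p = 3.19e-12), and the direct difference was 0.73 ± 0.038 (edgeR adjusted p = 5.87e-14).

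**Figure D4:**
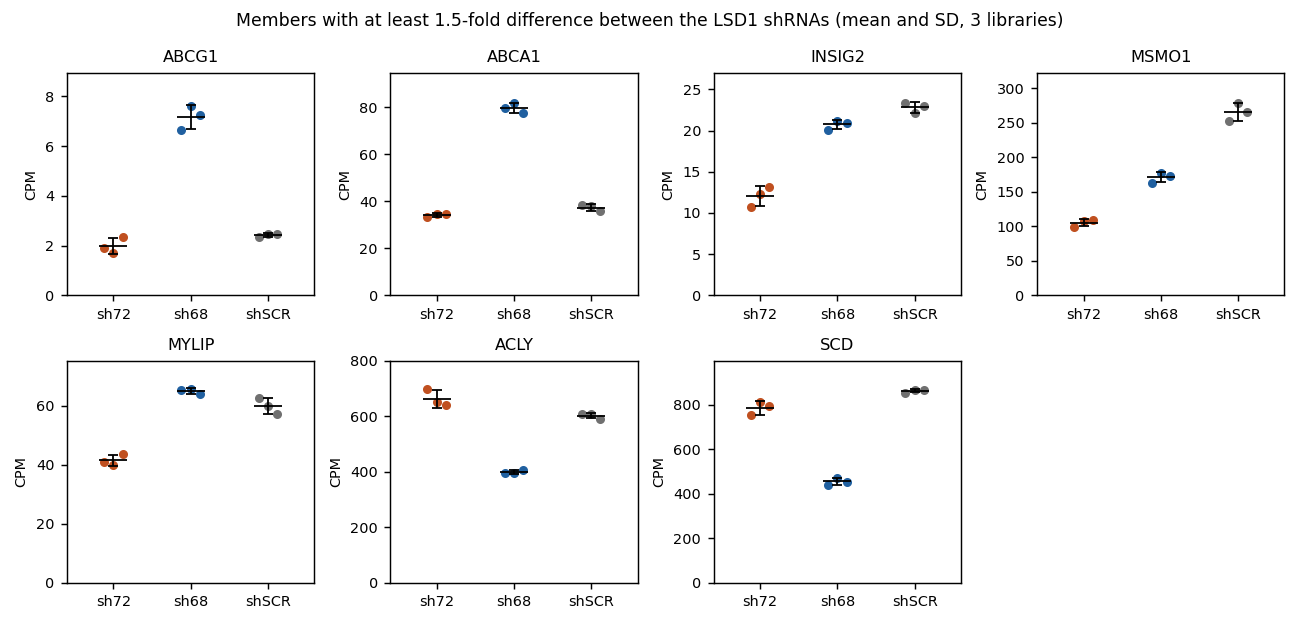
CPM in each library (points) for the 7 genes with a difference of at least 1.5-fold between the shRNAs that passed the test, in panels with their own axis from 0; horizontal bars are means and error bars SD of 3 libraries. ABCG1 and ABCA1 are high with sh68, INSIG2, MSMO1 and MYLIP are lowest with sh72, and ACLY and SCD are lowest with sh68.

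ELOVL6, which lengthens palmitate, averaged 54.8 ± 2.84 CPM with sh72 and 42.9 ± 2.10 CPM with sh68, against 46.3 ± 1.38 CPM with shSCR (SD, n = 3 each), and rose with sh72 (0.25 ± 0.051, edgeR adjusted p = 0.000294). ACACA, which makes malonyl-CoA, was counted at only 54 to 88 reads a library and averaged 2.56 ± 0.0326 CPM with sh72, 2.30 ± 0.0614 CPM with sh68 and 2.20 ± 0.388 CPM with shSCR (SD, n = 3 each). Its SE of 0.14 on the mean was the largest of the list, and no comparison passed.

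FADS1 and FADS2, desaturases of polyunsaturated fatty acids with adjoining genes, differed between the shRNAs in opposite directions. FADS1 averaged 95.9 ± 4.76 CPM with sh72 and 122 ± 3.82 CPM with sh68, against 119 ± 0.504 CPM with shSCR (SD, n = 3 each), and fell with sh72 by 0.31 ± 0.042 (edgeR adjusted p = 1.33e-06). FADS2 averaged 460 ± 8.10 CPM with sh72 and 425 ± 9.65 CPM with sh68, against 472 ± 9.59 CPM with shSCR (SD, n = 3 each), and fell with sh68 by 0.15 ± 0.035 (edgeR adjusted p = 0.000853). Set against each other, sh72 minus sh68 was -0.35 for FADS1 (edgeR adjusted p = 1.62e-07) and 0.11 for FADS2 (edgeR adjusted p = 0.00766). Their exons share 142 bases, 2.85% of those of FADS2. Summed over the 7 genes, fatty acid synthesis had 2415 ± 39.0 CPM with sh72 and 1806 ± 10.7 CPM with sh68, against 2526 ± 32.7 CPM with shSCR (SD, n = 3 each).

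**Figure D5:**
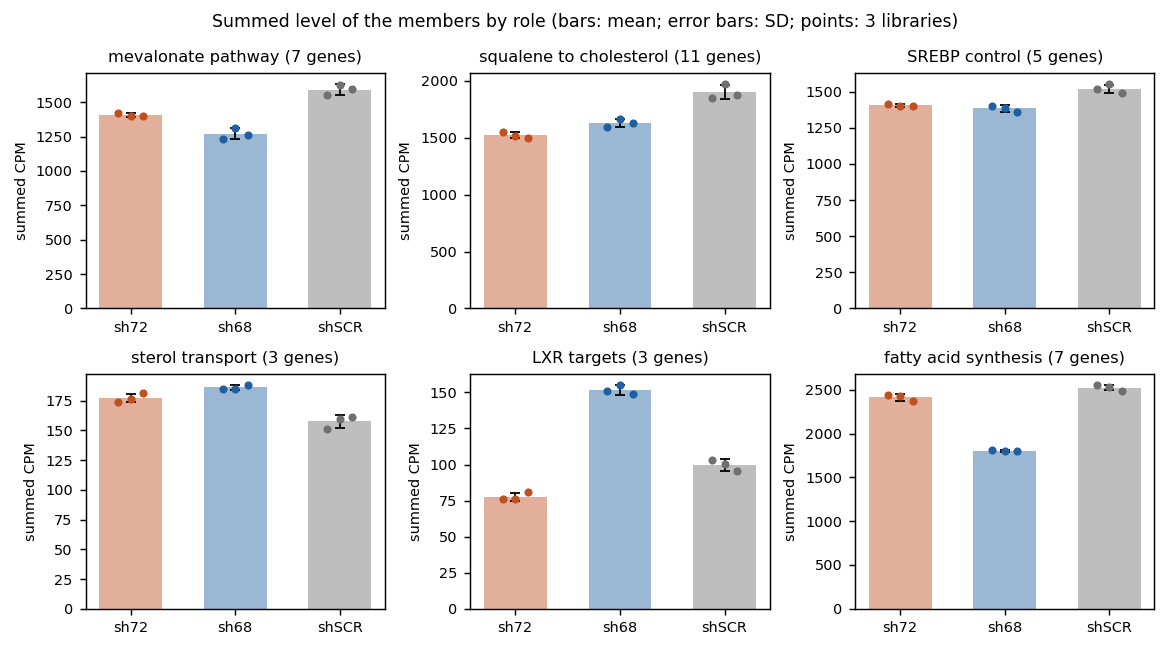
Summed CPM of the members of each role in each library (points), with bars for the mean and error bars for the SD of 3 libraries; every axis starts at 0. The mevalonate, squalene to cholesterol and SREBP sums are lower with both shRNAs than with shSCR, the LXR target sum is 151.7 CPM with sh68 against 99.65 CPM with shSCR, and the fatty acid sum is lowest with sh68 at 1806 CPM.

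Taking all 36 genes, the summed level was 7006 ± 74.6 CPM with sh72 and 6425 ± 70.4 CPM with sh68, against 7792 ± 128 CPM with shSCR (SD, n = 3 each). The sum is weighted to abundant genes. Per kilobase of merged GENCODE exons, the highest mean levels in shSCR were those of FDPS (200 CPM per kb), HMGCS1 (187), SREBF2 (169), SCD (161) and SQLE (160), and the lowest were those of ABCG1 (0.534) and ACACA (0.200).

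Of the 13 genes that passed the same way with each shRNA without overlap, 10 reached the smallest p that an exact two-sided permutation test of 6 libraries against 3 allows, 0.0119. The other 3, HMGCS1, MSMO1 and SCD, had 0.0238. They were named for groups that do not overlap, so these values describe them and test nothing further, and 3 libraries against 3 cannot go below 0.1.

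Genes that surround the pathway were read from other lists in the same fit. Of 24 further sterol genes, 23 were in the table and tested, of which 10 were higher and 6 lower on the mean (median log2 fold change 0.07). Over all genes tested, 24.9% were higher and 27.5% lower on the mean. The genes of this list that passed with the largest changes were NR1H3, ERLIN1, ERLIN2 and VLDLR. NR1H3, which encodes LXR alpha, had 1.14, 1.58 and 1.41 CPM with sh72 and 1.60, 1.85 and 1.22 CPM with sh68, against 3.25, 2.80 and 3.12 CPM with shSCR. It fell with each shRNA, by 1.16 ± 0.18 with sh72 (edgeR adjusted p = 7.34e-06) and by 0.98 ± 0.17 with sh68 (edgeR adjusted p = 3.67e-05). NR1H2, which encodes LXR beta and is named here after its values were seen, had 46.7, 42.7 and 39.6 CPM with sh72 and 54.2, 52.8 and 51.7 CPM with sh68, against 41.2, 44.5 and 38.8 CPM with shSCR. It rose by 0.35 ± 0.058 with sh68 (edgeR adjusted p = 1.82e-05) and was at 0.05 ± 0.059 with sh72 (edgeR adjusted p = 0.48), and the direct difference was -0.30 ± 0.058 (edgeR adjusted p = 0.000111).

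ERLIN1 and ERLIN2 encode membrane proteins of the endoplasmic reticulum that take part in the turnover of sterol-regulated proteins. ERLIN1 averaged 18.5 ± 1.38 CPM with sh72 and 37.2 ± 2.33 CPM with sh68, against 38.6 ± 2.27 CPM with shSCR (SD, n = 3 each). It fell with sh72 (-1.06 ± 0.065), did not pass with sh68 (-0.05, edgeR adjusted p = 0.475) and differed between the shRNAs (-1.01 ± 0.065, edgeR adjusted p = 3.82e-12). ERLIN2 fell with each, by 0.53 ± 0.055 with sh72 and by 0.44 ± 0.054 with sh68. VLDLR, a lipoprotein receptor, averaged 6.45 ± 0.606 CPM with sh72 and 11.2 ± 0.635 CPM with sh68, against 6.25 ± 0.771 CPM with shSCR (SD, n = 3 each), and rose with sh68 by 0.83 ± 0.097 (edgeR adjusted p = 1.24e-07).

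Of 24 further fatty acid genes, 23 were in the table and 22 were tested, with 7 higher and 9 lower on the mean (median log2 fold change 0.0037). The shares over all genes tested were 24.9% higher and 27.5% lower. SCD5, a paralog of SCD, averaged 0.595 ± 0.176 CPM with sh72 and 1.32 ± 0.153 CPM with sh68, against 0.406 ± 0.249 CPM with shSCR (SD, n = 3 each), and rose with sh68 by 1.71 ± 0.32 (edgeR adjusted p = 6.93e-05). ELOVL7, an elongase, rose with sh68 by 0.97 ± 0.12 (edgeR adjusted p = 3.69e-07) and was at 0.11 with sh72 (edgeR adjusted p = 0.518). CPT1A, which takes fatty acids into mitochondria for oxidation, averaged 46.0 ± 0.924 CPM with sh72 and 39.4 ± 0.541 CPM with sh68, against 56.1 ± 2.63 CPM with shSCR (SD, n = 3 each), and fell by 0.29 ± 0.047 with sh72 and by 0.51 ± 0.048 with sh68. LPIN1, a phosphatidate phosphatase, averaged 104 ± 7.50 CPM with sh72 and 126 ± 3.18 CPM with sh68, against 87.3 ± 4.96 CPM with shSCR (SD, n = 3 each), and rose by 0.25 ± 0.050 with sh72 and by 0.53 ± 0.049 with sh68.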

How the data were processed

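The authors deposited 1 table of read counts per gene symbol, whole numbers with no normalization, for 9 libraries of polyadenylated RNA; all its columns were used. CASAVA 1.8.2, STAR 2.5.2, featureCounts 1.5.2 and hg38 are named in the submitters' processing notes, and nothing in the sources used here gives the annotation or strand setting. Sample titles number the LSD1 shRNAs and no label ties the numbers to sh68 and sh72, so the table's names are used.

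The model was fitted to all genes in R 4.3.3 (edgeR 4.0.16; limma 3.58.1): filterByExpr kept 15725 of 26816 genes, TMM scaled the libraries, and 1 quasi-likelihood model with a term per shRNA gave 4 contrasts, the mean of both LSD1 shRNAs, each of them against shSCR, and sh72 minus sh68. Adjustment of the p-values was by Benjamini and Hochberg over all genes tested, with 0.05 as the threshold. The SE is the absolute log2 fold change over the square root of F. The fit was tested on simulated data. Library depth was 29506767 to 35270849 counted reads. P-values measure the spread between replicates of 1 line.

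The members and lists were chosen with earlier results of these data known. Values in every library are given for members passing the same way with each shRNA without overlap, for those passing in opposite directions, and for the SREBP control genes and KDM1A; ABCG1, SC5D and NR1H2 were added after their values were seen. Up to 4 passing genes with the largest change on the mean are named from each further list. Promoters came from RefSeq (GRCh38.p14) and exon lengths and overlaps from GENCODE 29. Wilson intervals cover counting error only. Tried instead were DESeq2 1.42.0 or limma-voom for the test, RLE or the library size alone for scaling, no filter or at least 1 CPM in 3 libraries, fitting only the groups compared, the 6 LSD1 shRNA libraries as 1 group, the replicate block, each library left out in turn and, for promoters, the 50 bases after the start. A minimum of 1.2-fold and the background of genes averaging at least 10 CPM were added after seeing the data.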

Additional observations from a re-analysis of the deposited data

Results flagged for a closer look

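Of the 36 members, 22 differed between the shRNAs, where 56.2% of all genes tested did. A difference that also reached 1.5-fold in sh72 minus sh68 was found in 7 of the 36, 2 higher and 5 lower. These counts are close to the shares over all genes tested, 5.51% and 12.4%. ABCG1 (log2 difference -1.87 ± 0.13, edgeR adjusted p = 1.08e-11) and ABCA1 (-1.22 ± 0.047, edgeR adjusted p = 2.95e-16) were lower with sh72 than with sh68. INSIG2 (-0.788 ± 0.071, edgeR adjusted p = 1.4e-09), MSMO1 (-0.697 ± 0.045, edgeR adjusted p = 4.53e-12) and MYLIP (-0.649 ± 0.049, edgeR adjusted p = 6.07e-11) were lower with sh72 as well. ACLY (0.734 ± 0.038, edgeR adjusted p = 5.87e-14) and SCD (0.789 ± 0.038, edgeR adjusted p = 1.46e-14) were higher with sh72 than with sh68. KDM1A itself differed by -0.23 ± 0.061 in sh72 minus sh68 (edgeR adjusted p = 0.00261), and the part of this in the 7 differences was not tested. Differences between the shRNA sequences other than their action on KDM1A were not tested.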

How the results depend on the processing

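Counts of members called kept within 1.5 times their reported value under RLE scaling, library size alone, both other filters, DESeq2 and limma-voom. On the mean these fits gave 6 to 8 higher and 19 to 24 lower, so none exceeded the reported 24 lower. The lowest count, 19 lower, came with library size alone. Fitting only the groups compared, which gives no mean, also kept the counts within 1.5 times. With the 6 LSD1 shRNA libraries as 1 group, 1 member was higher and 11 were lower on the mean. ABCA1, MYLIP, ACLY, SCD, SREBF1, INSIG1 and INSIG2 no longer passed (edgeR adjusted p from 0.145 to 0.566). That fit counts the difference between the shRNAs as spread. Shares of all genes passing were computed only for the reported fit and the minimum of 1.2-fold. The counts under the other alternatives therefore have no background of their own. With a minimum of 1.2-fold, 2 were higher and 7 lower on the mean, 1 and 4 with sh72, 3 and 8 with sh68, and 4 and 6 in sh72 minus sh68. Leaving out each library in turn gave 5 to 7 higher and 19 to 24 lower on the mean, 5 to 6 and 16 to 18 with sh72, 4 to 6 and 18 to 21 with sh68, and 11 to 14 and 9 to 11 in sh72 minus sh68. With the replicate block, 7 were higher and 24 lower on the mean, and 6 and 18 with sh72. The same block gave 5 and 20 with sh68, and 13 and 11 in sh72 minus sh68. Over all genes tested, residuals of same-numbered libraries had Pearson r from -0.0358 to 0.0724. Such a correlation cannot exclude pairing in single genes. FASN, picked after its values were seen, was highest in replicate 1 and lowest in replicate 3 of every group. HSD17B7 was highest in replicate 3 with shSCR and in replicate 1 with sh68. Of 1440 alternative values for 20 named members, 79 changed side of the threshold. Among values that passed in the reported or the alternative fit, 0 changed direction. Changes of sign among values that passed in neither were not counted. Scaling moved the median of all genes by less than 0.1 (0.018 on the mean with library size alone, against -0.015). With the 50 bases after the start included, the NF-Y box stood in 61.9% of member promoters and the E-box in 14.3%. Genes at low depth, ACACA and ABCG1 above all, have the widest errors.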

Other observations

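Among the 23 further sterol genes and 22 further fatty acid genes tested, 3 passed in opposite directions with the shRNAs, as ACLY did. Over all genes tested, 7.83% did so. The 3 were chosen here after their values were seen. SCARB1, a lipoprotein receptor that takes up cholesterol esters, had 17.7, 22.0 and 18.8 CPM with sh72 and 11.3, 10.8 and 9.76 CPM with sh68, against 13.3, 13.4 and 14.5 CPM with shSCR. It was 0.51 ± 0.081 higher with sh72 (edgeR adjusted p = 1.21e-05) and 0.37 ± 0.086 lower with sh68 on the log2 scale (-0.37, edgeR adjusted p = 0.000861). NUS1, a subunit of the enzyme that makes dolichol precursors from farnesyl diphosphate, averaged 36.2 ± 1.71 CPM with sh72 and 25.3 ± 1.69 CPM with sh68, against 29.2 ± 0.981 CPM with shSCR (SD, n = 3 each). ELOVL5, an elongase of polyunsaturated fatty acids, averaged 284 ± 5.18 CPM with sh72 and 225 ± 5.88 CPM with sh68, against 248 ± 1.46 CPM with shSCR (SD, n = 3 each). All 3 passed with sh72 and with sh68 separately and in sh72 minus sh68, and did not pass on the mean of both shRNAs (edgeR adjusted p = 0.437 for SCARB1, 0.406 for NUS1 and 0.467 for ELOVL5). The direct differences, sh72 minus sh68, were 0.87 ± 0.082 for SCARB1, 0.52 ± 0.058 for NUS1 and 0.33 ± 0.035 for ELOVL5.

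SPRING1, which encodes a factor needed for SREBP activation, was also chosen after its values were seen. It had 364, 341 and 350 CPM with sh72 and 512, 502 and 493 CPM with sh68, against 314, 324 and 310 CPM with shSCR. It was higher with each shRNA, by 0.15 ± 0.037 with sh72 (edgeR adjusted p = 0.00116) and by 0.67 ± 0.036 with sh68 (edgeR adjusted p = 1.79e-13).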
